A study of Mus musculus with 12 samples.

Results

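The opioid and neuropeptide B genes of the mouse cortex are described here in 4 genotypes. The set comprised the opioid receptors Oprk1, Oprm1, Oprd1 and Oprl1, the opioid precursors Pdyn, Penk and Pnoc, and the neuropeptide B and W receptor Npbwr1. These 8 symbols were looked up among the 24062 gene symbols with deposited read counts, and all 8 were found and passed the filter on low counts. The genes were chosen by symbol with genotype differences in the same 12 libraries already known, and which value brought in which gene is not recorded. All genotype comparisons below therefore count as used in the choice, and the p values printed with them describe size against spread and are no independent test of the set. Adora2a, the adenosine receptor of striatal neurons, was read in the same libraries as a measure of tissue content.

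RNA came from the cortex of 9-month-old WT, Tia1+/-, PS19 and P301S Tia1+/- mice, with 3 mice per genotype and 1 library per mouse. PS19 mice carry a human MAPT transgene with the P301S mutation, expressed from the mouse Prnp promoter, and were purchased as a B6;C3 stock. They have both copies of Tia1, a gene for an RNA-binding protein of stress granules. Tia1+/- mice lack 1 copy of Tia1 through a null allele that had been backcrossed to C57BL/6J, and P301S Tia1+/- mice carry the transgene and lack 1 copy. The lines were crossed, and the paper describes the P301S mice with both copies and with 1 copy as littermates of the same background. The transgene was thus studied as a single inserted line, and the loss of Tia1 was partial and constitutive.

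Opioid receptors couple to Gi/o proteins, which lower cyclic AMP, open inwardly rectifying potassium channels and reduce transmitter release. Enkephalins, cut from the Penk product, act mainly on the delta and mu receptors (Oprd1 and Oprm1), dynorphins from Pdyn act on the kappa receptor (Oprk1), and nociceptin from Pnoc acts on Oprl1. In the striatum Penk and Adora2a mark spiny neurons of the indirect pathway and Pdyn those of the direct pathway, while in the cortex the precursors are made by subsets of neurons, many of them GABAergic. Npbwr1 is another Gi-coupled receptor, and its ligands derive from Npb and Npw.

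The peptides behind the precursor counts can be read from the coding sequences. The longest GENCODE M21 coding sequence of each precursor gene was searched in frame, on its coding strand only, for the 4 codons TAN, GGN, GGN and TTN, which open the enkephalins and dynorphins, and for TTN, GGN, GGN and TTN, the related opening of nociceptin (N is any base). The motifs cannot overlap at the same codon. Penk held 7 copies of the first motif in 268 codons, Pdyn held 3 in 248 codons, and Pnoc held none of the first and 1 of the other in 212 codons. All 11 copies followed a pair of lysine or arginine codons, the signal at which prohormone convertases cut. The first motif occurred in 0.403% and the other in 0.821% of 21562 protein-coding genes. The units below show how the precursors differ, with the motif in capitals, 2 codons on either side, and positions on GRCm38, minus strand:
Penk, chr4:4134310-4134333: aaacggTACGGAGGCTTCatgaag
Penk, chr4:4133938-4133961: aagaggTATGGGGGCTTCctgaag
Pdyn, chr2:129688235-129688258: aaacgcTATGGCGGCTTTttgcgc
Pdyn, chr2:129688127-129688150: aaacgcTATGGGGGCTTCctgcgg
Pdyn, chr2:129688070-129688093: aagcgcTATGGTGGTTTCctgcgg
Pnoc, chr14:65404875-65404898: aaaaggTTTGGGGGCTTCaccggg
The codon after the motif tells methionine enkephalin units from those that begin with leucine enkephalin. It was atg, for methionine, in 6 of the 7 Penk units and a leucine codon in the remaining Penk unit and in all 3 Pdyn units. By sequence, Penk thus encodes mainly methionine enkephalin, and Pdyn encodes dynorphins, which begin with leucine enkephalin. The counts measure the mRNA and not the peptides cut from its product.

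The 8 genes lie on 5 chromosomes of GRCm38. Oprk1 (chr1:5588466-5606131, plus strand) and Npbwr1 (chr1:5913707-5917398, minus strand) are neighbours, 307.6 kb apart, with 3 annotated genes and no protein-coding gene between them. Oprm1 is at chr10:6758506-7038198, Oprd1 at chr4:132110726-132144486, Oprl1 at chr2:181715016-181720985, Pdyn at chr2:129686565-129699844, Penk at chr4:4133531-4138819 and Pnoc at chr14:65400673-65425472. Oprm1 overlaps Ipcef1 on the opposite strand, which had between 2085 and 4686 counts against 34 to 123 for Oprm1. Penk overlaps A830012C17Rik in the same way. The strand setting of the counting is not given in the sources used here, so reads of the overlapping genes may not have been separated.

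Libraries held between 11978962 and 19146484 counts, and levels are given as CPM, counts relative to library size after TMM scaling. Tia1 itself did not separate the labelled genotypes, with a mean of 82.0 ± 10.3 CPM for WT, 74.7 ± 2.76 for P301S Tia1+/-, 73.5 ± 3.87 for PS19 and 68.0 ± 10.3 for Tia1+/- mice (SD, n = 3), which does not settle the labels because a null allele can still be transcribed. Titles were used for grouping, because for both genotypes with 1 copy of Tia1 the separate genotype field carries the other one's name. Xist had between 3304 and 5693 counts in these 6 libraries and at most 13 in the 6 others, while Uty, a Y-linked gene, had at most 3 in these 6 and at least 687 in the others. The study's methods describe the mice as male. Sex-linked expression, and with it the sex of the mice, cannot be told apart from the Tia1 genotype in these libraries. This holds for Tia1+/- against WT, for P301S Tia1+/- against PS19 and for their average.

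Markers of other brain regions varied between libraries, and their part in the member values was not tested beyond the covariate fits given below. Tia1+/- replicate 3 had the highest level of all 12 striatum genes, with a summed 2399 CPM against 226.5 to 497.8 CPM in the other 11 libraries. Markers of the olfactory bulb summed to between 662.5 and 798.3 CPM in the 3 P301S Tia1+/- libraries, 1058 CPM in WT replicate 1, 150.7 and 36.2 CPM in the other WT libraries, and 7.64 to 15.6 CPM in PS19 cortex. The Tia1+/- libraries had 10.35, 9.92 and 135.0 CPM of the bulb markers. No gene of either list was at 0 counts in all 3 libraries of a genotype. In bulk RNA, fewer cells of a type and less RNA per cell cannot be told apart.

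**Figure D1:**
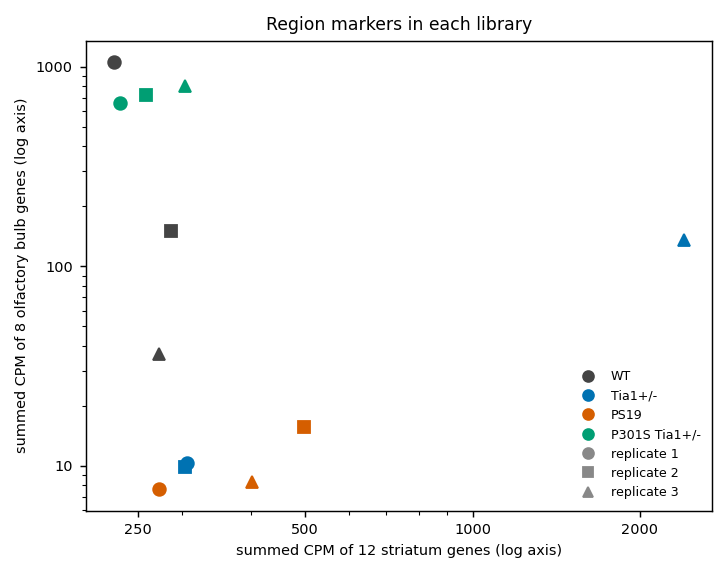
Summed CPM of 12 striatum genes (x axis, log scale) and of 8 olfactory bulb genes (y axis, log scale), with 1 point per library, colour for genotype and shape for replicate. Tia1+/- replicate 3 lies alone on the right at 2399 CPM, and WT replicate 1 lies with the 3 P301S Tia1+/- libraries at 662.5 to 1058 CPM of the bulb genes.

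Compared per kilobase of exon, Penk had the highest median level over the 12 libraries, at 34.7 CPM per kb, and Npbwr1 the lowest, at 0.176 CPM per kb. Between them came Oprl1 (16.0 CPM per kb), Oprd1 (7.99), Pdyn (7.89), Pnoc (1.85), Oprk1 (0.649) and Oprm1 (0.439). The ranges of each pair of neighbours in this order overlapped. Genes also differed in how far their CPM spread over the libraries, from 1.58-fold for Oprd1 and 1.72-fold for Pnoc to 25.9-fold for Oprk1, 29.1-fold for Pdyn and 32.9-fold for Penk. Adora2a spread 138.7-fold, from 0.684 CPM in WT replicate 3 to 94.9 CPM in Tia1+/- replicate 3.

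**Figure D2:**
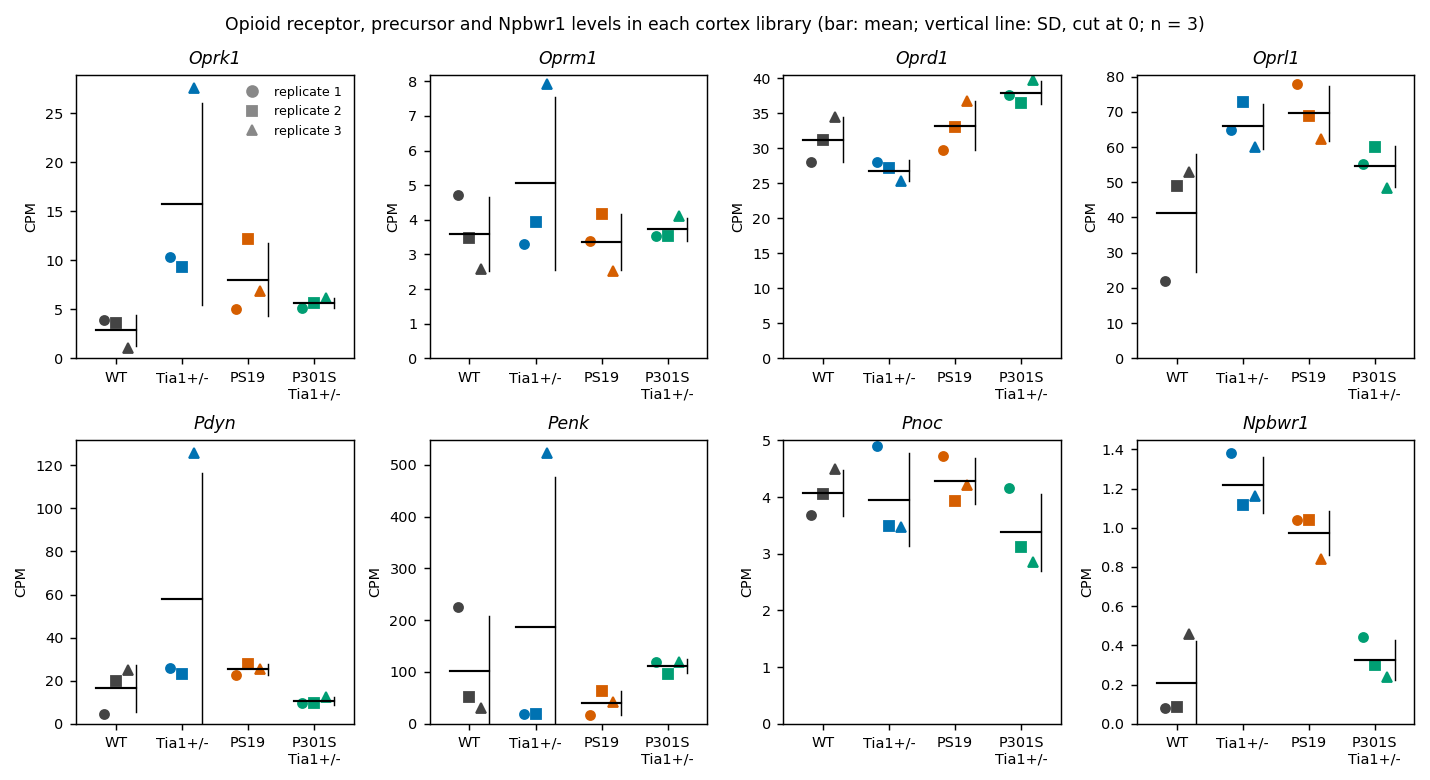
CPM of the 8 members (y axes, linear from 0) in each genotype (x axis), with 1 point per library, the bar at the mean and the vertical line spanning the SD (n = 3). Tia1+/- replicate 3 stands alone for Oprk1, Oprm1, Pdyn and Penk, and the Npbwr1 points of Tia1+/- and PS19 lie above those of WT and P301S Tia1+/-.

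Oprk1, the kappa receptor, was lowest in WT cortex. It measured 3.92, 3.64 and 1.07 CPM in WT replicates 1 to 3, and 5.16, 5.70 and 6.19 CPM in P301S Tia1+/- cortex. PS19 cortex had 5.04, 12.2 and 6.87 CPM, and Tia1+/- cortex had 10.35, 9.33 and 27.6 CPM. All 9 libraries of the other genotypes were above the 3 WT libraries, whereas PS19 overlapped with both P301S Tia1+/- and Tia1+/- cortex. The Tia1+/- library with the highest Oprk1 was the one with the striatal markers, and without it the Tia1+/- libraries still lay above all WT and P301S Tia1+/- libraries.

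Oprm1, the mu receptor, had overlapping levels in the 4 genotypes. The group means were 3.59 ± 1.07 CPM in WT, 3.36 ± 0.817 in PS19 and 3.72 ± 0.331 in P301S Tia1+/- cortex. In Tia1+/- cortex it measured 3.31, 3.94 and 7.92 CPM, the highest value again in replicate 3. No genotype stood apart from the others.

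Oprd1, the delta receptor, varied least. It measured 28.09, 31.2 and 34.5 CPM in WT and 28.08, 27.1 and 25.3 CPM in Tia1+/- cortex. PS19 cortex had 29.8, 33.1 and 36.8 CPM and P301S Tia1+/- cortex 37.5, 36.5 and 39.8 CPM. The Tia1+/- libraries were below all others, although the highest of them and the lowest WT library differed by less than the SD of either group. P301S Tia1+/- libraries lay above those of WT and Tia1+/- cortex and overlapped with PS19.

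Oprl1, the nociceptin receptor, was the most abundant receptor of the set per kilobase. It measured 22.0, 48.9 and 52.9 CPM in WT cortex and 55.1, 59.98 and 48.4 CPM in P301S Tia1+/- cortex. Tia1+/- cortex had 64.9, 72.7 and 60.05 CPM and PS19 cortex had 77.8, 68.8 and 62.3 CPM. The Tia1+/- and PS19 libraries were all above the WT and P301S Tia1+/- libraries. However, the highest P301S Tia1+/- and the lowest Tia1+/- library differed by less than the SD of either group. The lowest value, 0.433 times the mean of the other WT libraries, was that of WT replicate 1, the library with the highest bulb markers.

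Pdyn, the dynorphin precursor, was lowest where the bulb markers were highest. It measured 4.32, 19.7 and 25.0 CPM in WT, 22.7, 27.9 and 25.2 CPM in PS19 and 9.62, 9.48 and 12.4 CPM in P301S Tia1+/- cortex. Tia1+/- cortex had 25.8, 22.9 and 125.6 CPM. Apart from WT replicate 1, the P301S Tia1+/- libraries were below all others. Tia1+/- replicate 3 was 5.16 times the mean of the other Tia1+/- libraries.

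Penk, the enkephalin precursor, had the widest range. It measured 224.6, 50.7 and 29.4 CPM in WT, 15.9, 62.7 and 42.0 CPM in PS19 and 119.7, 96.7 and 118.5 CPM in P301S Tia1+/- cortex. The Tia1+/- libraries had 18.3, 19.2 and 522 CPM. Within WT and Tia1+/- cortex 1 library was 5.61 and 27.9 times the mean of the others, so that the SD of 107 and 291 CPM exceeded the group means of 102 and 187 CPM. P301S Tia1+/- cortex lay above PS19 and overlapped with the other genotypes.

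Pnoc, the nociceptin precursor, was nearly level, at 4.29 ± 0.408 CPM in PS19, 4.08 ± 0.403 in WT, 3.95 ± 0.819 in Tia1+/- and 3.38 ± 0.685 in P301S Tia1+/- cortex. Its ranges overlapped in every pair of genotypes next to each other in level. Replicate 3 of Tia1+/- cortex did not stand apart, at 0.830 times the mean of the other Tia1+/- libraries.

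Npbwr1 had few reads but formed separate levels. It had 1, 1 and 6 counts in WT, 7, 5 and 4 in P301S Tia1+/-, 20, 13 and 14 in PS19 and 20, 17 and 18 in Tia1+/- cortex. As CPM these were 0.0800, 0.0846 and 0.456 in WT, 0.440, 0.300 and 0.238 in P301S Tia1+/-, 1.04, 1.04 and 0.843 in PS19, and 1.38, 1.12 and 1.16 in Tia1+/- cortex. The PS19 and Tia1+/- libraries were all above the WT and P301S Tia1+/- libraries, and the last 2 groups overlapped. From the summed counts, Npbwr1 was 4.55 times higher in PS19 than in WT (exact 95% interval 2.13 to 11.2) and 5.69 times higher in Tia1+/- than in WT (2.70 to 13.8). It was 3.0 times higher in PS19 than in P301S Tia1+/- (1.67 to 5.67) and 3.75 times higher in Tia1+/- than in P301S Tia1+/- cortex (2.12 to 7.02). These intervals cover counting error only. Unlike for Oprk1, Pdyn and Penk, Tia1+/- replicate 3 lay within its group, at 0.929 times the mean of the other libraries.

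Set against Adora2a, the members fell into different patterns. Adora2a was 94.9 CPM in Tia1+/- replicate 3, or 46.0 times the mean of the other Tia1+/- libraries, and Penk, Pdyn, Oprk1 and Oprm1 were all highest in that library. Penk was also high where Adora2a was not, with 224.6 CPM in WT replicate 1 at an Adora2a of 4.64 CPM and 119.7 CPM in P301S Tia1+/- replicate 1 at 2.08 CPM. Oprk1 differed between libraries with little Adora2a. At an Adora2a of 2.55 and 1.58 CPM, Tia1+/- replicates 1 and 2 had 10.35 and 9.33 CPM of Oprk1, while WT replicates 2 and 3, at 1.35 and 0.684 CPM of Adora2a, had 3.64 and 1.07 CPM. In PS19 cortex the library with the highest Adora2a (10.97 CPM) also had the highest Oprk1, Oprm1, Pdyn and Penk. For Npbwr1 the library with the most Adora2a and those with little of it within Tia1+/- cortex lay side by side.

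**Figure D3:**
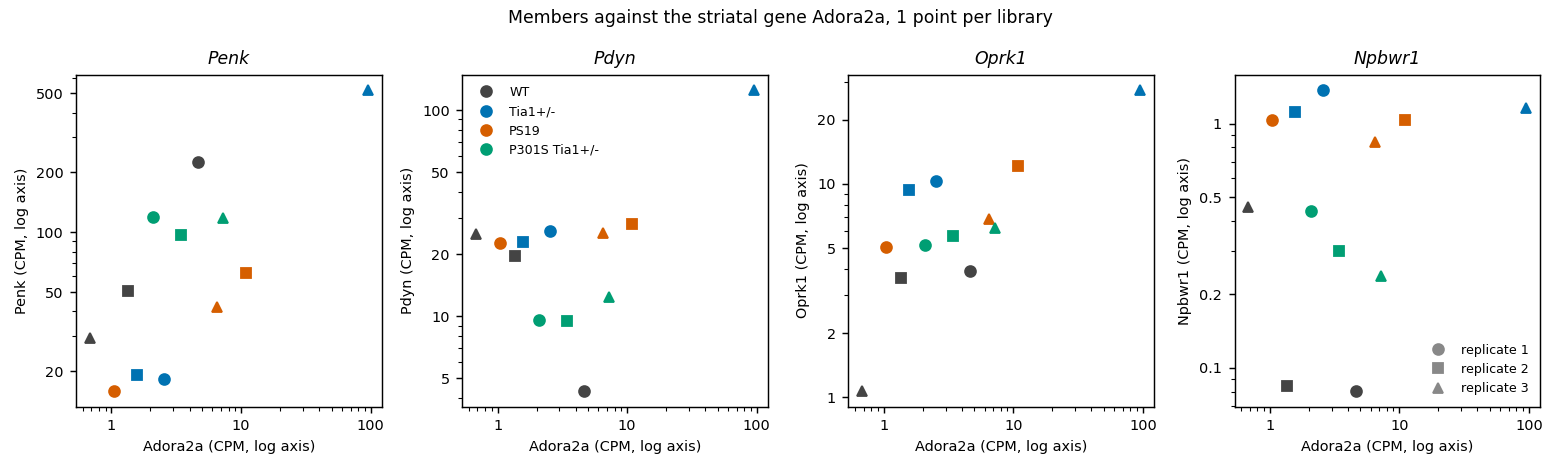
CPM of Penk, Pdyn, Oprk1 and Npbwr1 (y axes, log scale) against CPM of Adora2a (x axes, log scale), with 1 point per library, colour for genotype and shape for replicate. Tia1+/- replicate 3 lies at the upper right for Penk, Pdyn and Oprk1, while for Npbwr1 it lies level with the other Tia1+/- libraries.

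Adding the Adora2a level of each library to the fit as a covariate, which takes up what varied in step with this striatal gene, brought Penk past the threshold in 4 comparisons and the interaction. Penk then differed by -2.12 ± 0.386 on the log2 scale in PS19 against WT (adjusted p = 0.0376), by -2.005 ± 0.420 in Tia1+/- against WT (adjusted p = 0.0317), by 1.94 ± 0.378 in P301S Tia1+/- against PS19 (adjusted p = 0.01998) and by 1.83 ± 0.400 in P301S Tia1+/- against Tia1+/- cortex (adjusted p = 0.0363). Its interaction was 3.95 ± 0.576 (adjusted p = 0.00465). Without the covariate the values for Tia1+/- against WT and P301S Tia1+/- against Tia1+/- had the opposite sign, 0.88 and -0.74. The part of the bulb markers was not tested in this fit. With the bulb markers as the covariate instead, Penk was called in the same comparisons with the opposite sign to the Adora2a fit. It was at 3.27 in PS19 and 2.98 in Tia1+/- against WT (adjusted p = 0.0305 and 0.0105). In P301S Tia1+/- it was at -4.52 against PS19 and -4.23 against Tia1+/- (adjusted p = 0.0220 and 0.00737). The interaction was -7.5 (adjusted p = 0.00735).

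With the same covariate the calls beside Penk were Oprk1 and Npbwr1 in Tia1+/- against WT, Oprd1 and Npbwr1 in P301S Tia1+/- against Tia1+/-, and Oprk1, Oprl1 and Npbwr1 in the interaction. Members called numbered 1 in PS19 against WT (2.97% of all genes), 1 in P301S Tia1+/- against PS19 (5.57%), 3 in Tia1+/- against WT (5.66%), 3 in P301S Tia1+/- against Tia1+/- (3.94%) and 4 in the interaction (14.5%). In the averages over both backgrounds none was called (0.563% and 0.0259%).

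Whether P301S tau altered these genes was addressed by comparing PS19 with WT cortex. Of the 8 members, 3 were higher in every PS19 library than in every WT library and none was lower throughout. Of the 15440 genes tested, 20.8% did not overlap, 9.75% being higher and 11% lower. Npbwr1 had a log2 fold change of 2.16 ± 0.520 (SE, adjusted p = 0.159), Oprk1 of 1.47 ± 0.536 (adjusted p = 0.230) and Oprl1 of 0.75 ± 0.253 (adjusted p = 0.211), in edgeR's quasi-likelihood test with Benjamini-Hochberg adjustment. None passed an adjusted p of 0.05, as for 0% of all genes, and 3 had an unadjusted p under 0.05 (16.3% of all genes). DESeq2 called 1 member, Npbwr1 (adjusted p = 0.0478), and 2.88% of all genes. The remaining 5 members had log2 fold changes between -1.34 and 0.63, and the median of the 8 was 0.36 against -0.01 over all genes.

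Oprk1 and Npbwr1 differed in the same direction without WT replicate 1 and Tia1+/- replicate 3, at log2 fold changes of 1.77 and 1.78 (adjusted p = 0.0926 and 0.154), in a fit that called no member and 0.476% of all genes. In a fit of only the PS19 and WT libraries, with or without the replicate number as a block, 0% of all genes and no member passed. With striatum and bulb markers together as covariates the Npbwr1 fold change was near 0 (0.0016). Over all alternatives the adjusted p for Npbwr1 ran from 0.0478 to 0.991 and for Oprk1 from 0.00365 to 0.559. The Oprl1 difference was 0.46 without WT replicate 1. Bulb markers, with a median log2 fold change of -5.99 and 8 of 8 at an unadjusted p under 0.05 though none past the adjusted threshold, moved with this comparison.

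Tia1+/- was compared with WT cortex for the loss of 1 copy of Tia1 without the transgene. In these libraries that loss cannot be told apart from sex-linked expression. Groups follow the titles, and under the genotype field this comparison would be P301S Tia1+/- against WT. Oprk1, Oprl1 and Npbwr1 were higher in every Tia1+/- library and Oprd1 was lower, 4 of 8 members without overlap against 20% of all genes (9.6% higher and 10.4% lower). The log2 fold changes were 2.48 ± 0.513 for Npbwr1 (adjusted p = 0.0574), 2.46 ± 0.538 for Oprk1 (adjusted p = 0.0596), 0.68 ± 0.253 for Oprl1 (adjusted p = 0.183) and -0.22 ± 0.104 for Oprd1 (adjusted p = 0.276). Pdyn differed by 1.83 ± 0.673 (adjusted p = 0.177) with overlapping ranges. In edgeR no member passed the threshold, against 0.712% of all genes, 4 had an unadjusted p under 0.05 against 19.1%, and DESeq2, which gave no adjusted p for Npbwr1, called 1, Oprk1, against 6.33%. A fit of only these 6 libraries called no member and 0.0408% of all genes, or 0.0068% with the replicate number as a block. WT also serves as the control in the comparison with PS19, so the differences of Oprk1, Oprl1 and Npbwr1 over WT in these comparisons rest on the same 3 libraries.

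The Pdyn difference depended on Tia1+/- replicate 3. Without that library the log2 fold change was 0.58, and without WT replicate 1 as well it was 0.11 ± 0.164. For Oprk1 it was 1.79 without Tia1+/- replicate 3 and 2.08 ± 0.461 without both libraries (adjusted p = 0.0474, with 1.72% of all genes called in that fit). With Adora2a as a covariate it was 1.71 ± 0.302 (adjusted p = 0.0219), and over all alternatives the adjusted p ran from 4.13e-04 to 0.781. Npbwr1 kept a difference between 2.11 and 3.77 when any 1 library was left out, passing the threshold only without WT replicate 3, the WT library with 6 of the 8 counts (adjusted p = 0.0185, with a range of 0.0185 to 0.859 over all alternatives). With striatum and bulb markers together as covariates it was 0.64. The Oprl1 difference was 0.39 without WT replicate 1. At an unadjusted p under 0.05, 11 of 12 striatum genes were higher in Tia1+/- than in WT cortex (median log2 fold change 2.60). At that level 7 of 8 bulb genes were lower (median -3.03) and 5 of 5 oligodendrocyte genes were higher (median 0.95). None of these markers passed the adjusted threshold in edgeR. Beyond the covariate fits, their part in the member values was not tested.

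**Figure D4:**
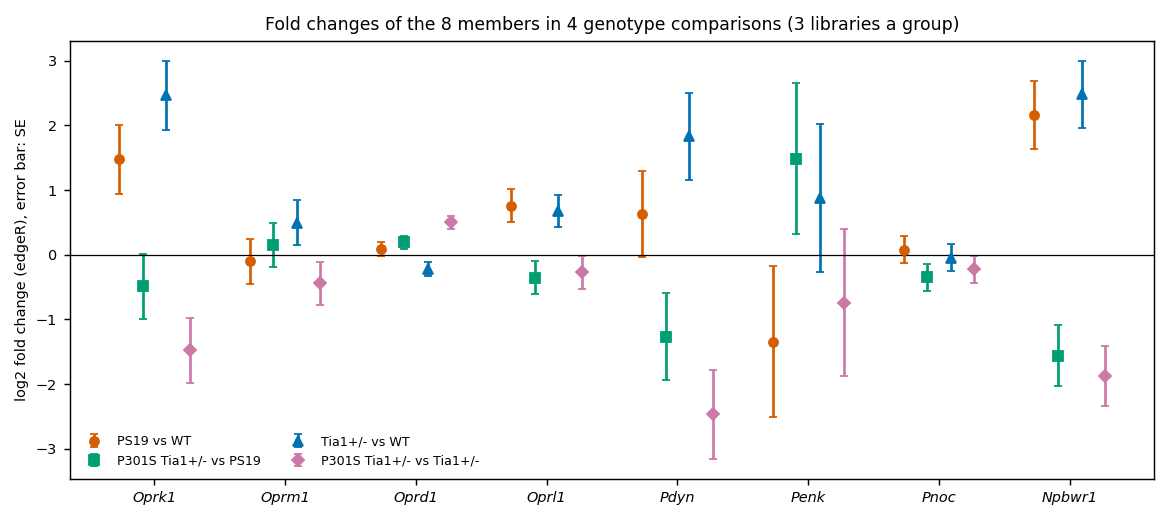
Log2 fold changes of the 8 members (x axis) in 4 comparisons, from the edgeR fit of all 12 libraries, with SE as error bars (3 libraries per group). Oprk1, Oprl1 and Npbwr1 lie above 0 in PS19 and Tia1+/- against WT and below 0 in P301S Tia1+/- against either, and none of these values passed an adjusted p of 0.05.

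Loss of 1 copy of Tia1 on the P301S background was examined by comparing P301S Tia1+/- with PS19 cortex. This loss, too, cannot be told apart from sex-linked expression. Under the genotype field the comparison would be Tia1+/- against PS19. Penk was higher and Pdyn, Oprl1 and Npbwr1 were lower in every P301S Tia1+/- library, 4 of 8 members without overlap against 38.5% of all genes (20.2% higher and 18.2% lower). The log2 fold changes were 1.48 ± 1.17 for Penk (adjusted p = 0.498), -1.26 ± 0.675 for Pdyn (adjusted p = 0.329), -0.35 ± 0.250 for Oprl1 (adjusted p = 0.449) and -1.56 ± 0.467 for Npbwr1 (adjusted p = 0.139). No member passed the threshold in edgeR (0.24% of all genes did) or in DESeq2 (5.53%), which gave no adjusted p for Penk and Npbwr1. At an unadjusted p under 0.05 there was 1 member, against 19.3% of all genes. The other 4 members differed by between -0.49 and 0.19.

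The spread in the fit of all libraries includes that of WT and Tia1+/- cortex. In a fit of only these 6 libraries all 4 members passed, with adjusted p values of 3.57e-04 for Pdyn, 0.0201 for Npbwr1, 0.0212 for Penk and 0.0431 for Oprl1 at nearly the same fold changes, but so did 20.1% of all genes. With the replicate number as a block in that fit, the same 4 passed, and 16.2% of all genes. Omission of WT replicate 1 and Tia1+/- replicate 3 also called these 4, and 22.9% of all genes. The direction was lost for Penk and Oprl1 when the bulb markers entered as a covariate, at -4.52 ± 0.986 and 0.71 ± 0.345, and for all 4 when the striatum markers entered as well (Penk -1.66, Oprl1 1.399, Pdyn 2.703 and Npbwr1 1.59). The bulb markers themselves differed by a median of 6.53 on the log2 scale, with 8 of 8 higher at an unadjusted p under 0.05 and 1 of 8 past the adjusted threshold. Over all alternatives the adjusted p ran from 6.41e-05 to 0.514 for Pdyn and from 0.00933 to 0.701 for Penk.

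The effect of P301S tau with 1 copy of Tia1 was given by P301S Tia1+/- against Tia1+/- cortex. The sign of these differences rests on the titles used for grouping. Oprd1 was higher and Oprk1, Oprl1, Pdyn and Npbwr1 were lower in every P301S Tia1+/- library, 5 of 8 members without overlap against 26% of all genes (14.9% higher and 11.1% lower). The log2 fold changes were 0.50 ± 0.103 for Oprd1 (adjusted p = 0.175), -1.47 ± 0.503 for Oprk1 (adjusted p = 0.238), -2.47 ± 0.689 for Pdyn (adjusted p = 0.190) and -1.88 ± 0.462 for Npbwr1 (adjusted p = 0.178). Oprl1 differed by -0.27 ± 0.251 (adjusted p = 0.619). As for 0% of all genes, no member passed in edgeR, where 4 were under an unadjusted p of 0.05 (15.6% of all genes were). DESeq2 called 3, Oprd1, Pdyn and Npbwr1 (adjusted p = 0.00903, 0.0368 and 0.0356), and 2.62% of all genes. The remaining 3 members differed by between -0.74 and -0.23.

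Tia1+/- replicate 3 set the size of some of these differences. Without it the log2 fold change was -0.80 for Oprk1 and -1.22 for Pdyn, where all libraries gave -1.47 and -2.47. Without it and WT replicate 1, 5 members passed the threshold (23.4% of all genes), namely Oprd1, Oprl1, Pdyn, Npbwr1 and Penk, and Oprk1 did not (adjusted p = 0.135). Penk then had a log2 fold change of 2.56 ± 0.431, against -0.74 with all libraries. A fit of these 6 libraries alone called Oprd1 and Npbwr1 (2.22% of all genes), and neither with the replicate number as a block (0.964%), where Oprd1 had an adjusted p of 0.0811 and Npbwr1 of 0.0777. The comparisons with PS19 and with Tia1+/- cortex share the P301S Tia1+/- libraries, and those with WT share the WT libraries, so their values are given side by side and not as independent results.

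The interaction asked whether the effect of losing 1 copy of Tia1 differed with the transgene. Its values rest on the grouping by title, since the genotype field exchanges the names of the Tia1+/- and P301S Tia1+/- libraries. The log2 interaction was -4.04 ± 0.695 for Npbwr1 (adjusted p = 0.0579), -2.95 ± 0.735 for Oprk1 (adjusted p = 0.0723), -3.09 ± 0.952 for Pdyn (adjusted p = 0.106), -1.03 ± 0.356 for Oprl1 (adjusted p = 0.132) and 0.41 ± 0.146 for Oprd1 (adjusted p = 0.137). None of these 5 passed the adjusted threshold in edgeR, where 0.00648% of all genes did, although all 5 had an unadjusted p under 0.05 (22.9% of all genes). DESeq2 called 3, Npbwr1, Oprk1 and Pdyn, against 8.06% of all genes. Without WT replicate 1 and Tia1+/- replicate 3, 5 members and 13.5% of all genes passed, the 5 being Oprk1, Oprl1, Pdyn, Penk and Npbwr1. For Pdyn the interaction was -1.85 without Tia1+/- replicate 3 and for Oprk1 it was -2.28, while for Npbwr1 it was -4.08 (adjusted p = 0.0403), and the Npbwr1 call was also made without WT replicate 1 (-3.67, adjusted p = 0.0298) and without WT replicate 3 (-5.35, adjusted p = 0.0124), with an adjusted p from 5.13e-04 to 0.968 over all alternatives. With striatum and bulb markers together as covariates the interaction turned sign for Npbwr1 (0.95), Oprl1 (1.78) and Pdyn (4.59), and with the bulb markers alone for Oprl1 (0.50).

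Averaged over both backgrounds, little was left. The Tia1+/- average cannot be told apart from sex-linked expression, and the P301S average rests on the titles. Oprk1 was higher with 1 copy of Tia1 by 0.99 ± 0.365 on the log2 scale (adjusted p = 0.223), and 0.65 without Tia1+/- replicate 3. Oprd1 was higher with P301S tau by 0.29 ± 0.0731 (adjusted p = 0.359). No member passed the threshold in edgeR or DESeq2 in either average, where edgeR called 0.44% and 0% and DESeq2 4.11% and 0.518% of all genes, and 1 member in each had an unadjusted p under 0.05 (15.6% and 8.39% of all genes). Without WT replicate 1 and Tia1+/- replicate 3, Pdyn was called in both averages (-0.59 and -0.53) and Penk in the P301S average (1.28), beside 11% and 14% of all genes. With all libraries Pdyn was at 0.28 and -0.92 and Penk at -1.04, so the sign turned for Pdyn in the Tia1+/- average and for Penk. Ranges overlapped for all 8 members in both averages, against 1.42% and 0.291% of all genes without overlap.

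**Figure D5:**
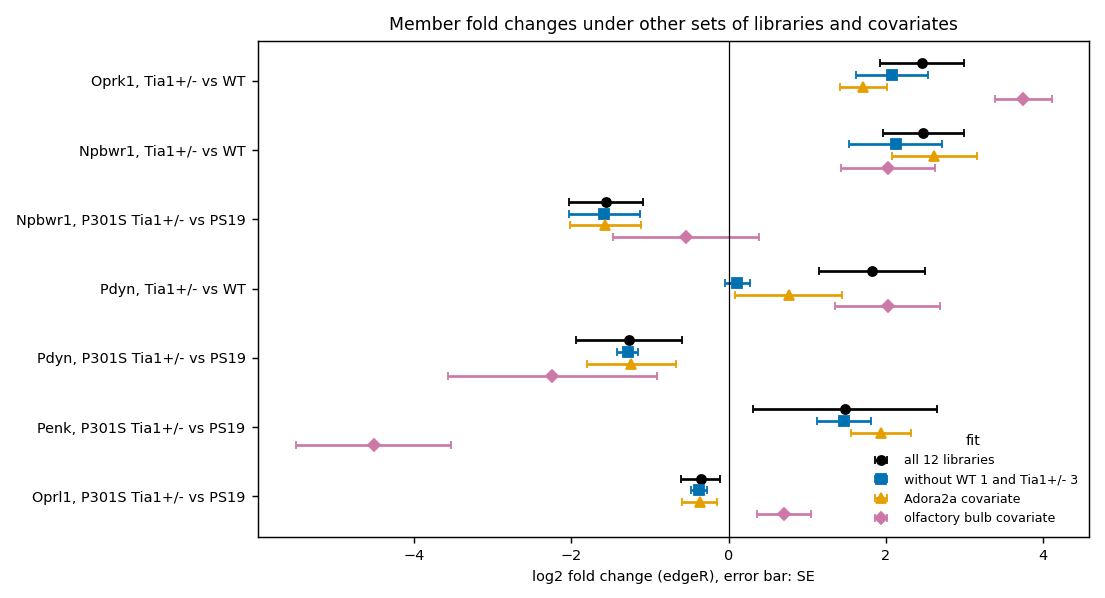
Log2 fold changes of members (x axis, SE as error bars) with all 12 libraries, without WT replicate 1 and Tia1+/- replicate 3, with Adora2a as a covariate, and with the olfactory bulb markers as a covariate. Pdyn in Tia1+/- against WT lies at 0.11 without these 2 libraries, and Penk and Oprl1 in P301S Tia1+/- against PS19 change sign with the bulb covariate.

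Other genes of the pathway gave 1 call. Of 42 listed genes for further ligands, prohormone processing, peptidases, Gi/o proteins, potassium channels and receptor regulation, 40 were tested. Rgs20, a regulator of G protein signalling that acts on Gi-family subunits, fell in P301S Tia1+/- against PS19 cortex, at 9.25, 10.2 and 9.87 CPM against 19.3, 20.9 and 14.8 CPM. The groups did not overlap, and the log2 fold change was -0.91 ± 0.133 (edgeR adjusted p = 0.0273). The call was lost when any 1 of 5 of the 6 libraries compared was left out, all but PS19 replicate 3, and with the replicate number as a block. Rgs17 of the same family differed by -0.61 ± 0.139 (adjusted p = 0.0921).

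In the remaining comparisons no pathway gene passed in edgeR. At an unadjusted p under 0.05 there were 9 of 40 in PS19 against WT (16.3% of all genes), 11 in Tia1+/- against WT (19.1%), 9 in P301S Tia1+/- against Tia1+/- (15.6%), 13 in the interaction (22.9%), 9 in the Tia1+/- average (15.6%) and 7 in the P301S average (8.39%). DESeq2 called 4, 4, 4, 5, 3 and 0, against 2.88%, 6.33%, 2.62%, 8.06%, 4.11% and 0.518% of all genes. Pcsk1, a convertase that cuts prohormones, measured 161.9 ± 20.7 CPM in WT against 96.4 ± 15.4 in PS19 and 83.5 ± 24.2 in Tia1+/- cortex, log2 fold changes of -0.75 and -0.95 (adjusted p = 0.170 and 0.0587). Ece1, an endothelin-converting enzyme that also degrades peptides, differed by -0.47 in PS19 against WT (adjusted p = 0.170). Gnai3, an inhibitory G protein subunit, differed by -0.80 in Tia1+/- against WT (adjusted p = 0.0953) and had an interaction of 1.34 (adjusted p = 0.0689).

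Rgs20 differed by -0.79 (adjusted p = 0.146) and Rgs17 by -0.59 (adjusted p = 0.178) in P301S Tia1+/- against Tia1+/- cortex. Rgs20 had an interaction of -1.07 (adjusted p = 0.0579) and differed by -0.37 (adjusted p = 0.107) in the Tia1+/- average, where Rgs17 differed by -0.34 (adjusted p = 0.136). In the P301S average the smallest p values were those of Rgs17, at -0.33 (adjusted p = 0.447), and of Cpe, a carboxypeptidase that trims prohormone fragments, at 0.20 (adjusted p = 0.474).

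Of the ligands outside the set, Pomc, the precursor of beta-endorphin, was near the limit of detection at 7 to 57 counts. It measured 1.12 ± 0.555 CPM in WT, 0.958 ± 0.395 in PS19, 2.43 ± 1.04 in Tia1+/- and 2.29 ± 0.965 in P301S Tia1+/- cortex, and did not pass the threshold in any comparison. Npb had at most 4 counts and Npw at most 21 counts in a library, and neither was tested.

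Genes with the most similar pattern over the 12 libraries were sought by the root mean square difference of centred and scaled log2 CPM, where all tested genes had a median near 1.36. Penk was nearest to Gad2 (0.17), the GABA-synthesizing enzyme, and P2ry1 (0.217), and Pdyn to Akap5 (0.242) and Ptpn5 (0.254). Oprm1 was nearest to Cartpt (0.342) and Foxo1 (0.368), Npbwr1 to Best1 (0.361) and Bloc1s2 (0.384), and Oprk1 to Foxp2 (0.387) and Pde4b (0.391). Pnoc and Oprd1 lay further from their closest genes than the other members did. These genes were 9330151L19Rik (0.484) and Tfam (0.506) for Pnoc, and Fkbp1b (0.542) and Fam174b (0.56) for Oprd1. Among the members, Npbwr1 was nearest to Oprl1 (0.641), and Oprk1, although its chromosomal neighbour, was nearest to Oprm1 (0.766). Adora2a was at 0.64 from Oprk1, 0.643 from Oprm1, 0.682 from Penk, 0.973 from Pdyn, 1.19 from Npbwr1 and 1.39 to 1.63 from the other 3. These distances describe 12 libraries that share genotype and tissue content, and they carry no test.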

How the data were processed

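Cortex RNA was sequenced as stranded total RNA, with 1 library from each of 12 mice. Reads had been aligned by the authors with TopHat2 (2.0.6 in the submitters' processing notes, which name mm10), and the authors deposited raw counts per gene from featureCounts. Annotation, strand setting and treatment of multiply mapped reads are not given in the sources used here.

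Of 24062 symbols, 3287 had no count. Filtering with filterByExpr left 15440 genes, which were scaled by TMM and analysed by edgeR's quasi-likelihood test (4.0.16, R 4.3.3), with a mean for each of the 4 groups over all 12 libraries. p values were adjusted by Benjamini-Hochberg over all genes (threshold 0.05). The methods of the study name DESeq2, used here as an alternative (1.42.0). Other alternatives were size factors of DESeq2, other filters, the replicate number as a block, covariates for Adora2a and for striatum and bulb markers, fewer libraries and each library left out. The fit with both marker covariates, that without WT replicate 1 and Tia1+/- replicate 3, and the block in fits of only the libraries compared were chosen after seeing the data. The tests were checked on simulated data with the same spread for all genes and no library that stood apart, so the check does not cover such libraries.

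The members and lists were chosen with earlier results of these data known, so p values are not independent evidence. Fold changes are given for members with an unadjusted p under 0.05 or without overlap, and for pathway genes past the threshold or, failing that, with the 2 smallest p values. Nothing beyond the labels says how mice were housed or processed, so p values measure the spread between these samples. An exact permutation test of 3 against 3 cannot go below p = 0.10 and was not used. The genes nearest in pattern to Oprl1 are not reported here. Sequences and positions come from GENCODE M21 (GRCm38).

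Replicate numbers were checked for pairing through correlations of residuals. Of 18 pairs with the same number, 7 exceeded 0.1 (range -0.538 to 0.346), so equal numbers did not mark pairs over the 4 groups. For Tia1+/- with P301S Tia1+/- all 3 pairs exceeded 0.1 (0.123, 0.134 and 0.24), and a block was fitted to these 6 libraries. No libraries of a group agreed within counting noise.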

Additional observations from a re-analysis of the deposited data

Results flagged for a closer look

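With libraries grouped by title, Oprk1, Oprl1 and Npbwr1 showed opposite differences with P301S tau on the 2 Tia1 backgrounds. The separate genotype field exchanges the names of the Tia1+/- and P301S Tia1+/- libraries. Under those names the difference between these groups would have the opposite sign, the same sign as in PS19 against WT. The 2 Tia1 backgrounds would then not differ in direction for these genes. Which names are right was not settled. By title the log2 fold changes were -1.47 for Oprk1, -0.27 for Oprl1 and -1.88 for Npbwr1, against 1.47, 0.75 and 2.16 in PS19 against WT. Every PS19 library was above every WT library, and every P301S Tia1+/- library was below every Tia1+/- library. For Oprl1 the latter gap was narrow, with 59.98 CPM in P301S Tia1+/- replicate 2 against 60.05 CPM in Tia1+/- replicate 3. The test of this difference, the log2 interaction of the edgeR fit, was -2.95 for Oprk1 (adjusted p = 0.0723), -1.03 for Oprl1 (adjusted p = 0.132) and -4.04 for Npbwr1 (adjusted p = 0.0579), and none passed the threshold. With striatum and bulb markers together as covariates the interaction was 0.95 for Npbwr1 and 1.78 for Oprl1, the opposite sign. The bulb markers had the opposite order, with a sum of 7.64 to 15.6 CPM in PS19 against 36.2 to 1058 CPM in WT and of 662.5 to 798.3 CPM in P301S Tia1+/- against 9.92 to 135 CPM in Tia1+/- cortex. Their part in these values was not tested beyond the covariate fits described with the processing.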

How the results depend on the processing

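Among the alternative fold changes of the members named in each comparison, 388 kept direction and side of the threshold, 50 kept direction and newly passed, and 17 turned sign. These 17 arose with the bulb covariate, or with striatum and bulb covariates together, and the bulb list itself differed between the genotypes. With the bulb list alone, Oprl1 became 0.71 in P301S Tia1+/- against PS19, 0.59 against Tia1+/- and 0.50 in the interaction, and Penk became -4.52 in P301S Tia1+/- against PS19. With both lists, Oprl1 became -0.49 in PS19 and -0.38 in Tia1+/- against WT, 1.399 and 1.289 in P301S Tia1+/- against PS19 and Tia1+/-, and 1.78 in the interaction. Pdyn became -1.89 in Tia1+/- against WT, 2.703 and 2.003 in P301S Tia1+/- against PS19 and Tia1+/-, and 4.59 in the interaction, Npbwr1 became 1.59, 0.95 and 0.95 in the last 3, and Penk -1.66 against PS19. The cause was not tested. Penk outside these comparisons also turned sign, with the Adora2a covariate and without WT replicate 1 and Tia1+/- replicate 3, as given with its values above. With the bulb covariate Penk turned from -1.34 to 3.27 in PS19 against WT and from 0.60 to -7.5 in the interaction.

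No member was called with all 12 libraries in edgeR. In the order PS19 against WT, P301S Tia1+/- against PS19, Tia1+/- against WT, P301S Tia1+/- against Tia1+/- and interaction, DESeq2 called 1, 0, 1, 3 and 3 members, the Adora2a covariate 1, 1, 3, 3 and 4, the bulb covariate 2, 3, 3, 4 and 3, both covariates 1, 1, 0, 0 and 1, and omission of WT replicate 1 and Tia1+/- replicate 3 gave 0, 4, 1, 5 and 5. The bulb covariate called 6.15%, 7.47%, 9.06%, 7.43% and 8.29% of all genes in this order, and both covariates 2.64%, 4.37%, 0.907%, 2.31% and 2.54%. The striatum covariate gave 2 in the interaction (3.5% of all genes). In the Tia1+/- and P301S averages both covariates gave 1 and 1 (9.16% and 1.57% of all genes), and omission of the 2 libraries 1 and 2. Fits of only the libraries compared gave 4 in P301S Tia1+/- against PS19, also with the replicate block, and 2 against Tia1+/-. Leaving out 1 library gave 0 to 1 in Tia1+/- against WT and in the interaction.

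For the other pathway genes, 1 was called, in P301S Tia1+/- against PS19. There DESeq2 gave 4, the replicate block 0, omission of the 2 libraries 17, the libraries compared alone 17 and these with the replicate block 12, and leaving out 1 library 0 to 1. DESeq2 gave 4 in PS19 against WT, 4 in Tia1+/- against WT, 4 in P301S Tia1+/- against Tia1+/-, 5 in the interaction and 3 in the Tia1+/- average. Omission of the 2 libraries gave 1, 16, 9 and 8 in the last 4 of these and 13 in the P301S average. In P301S Tia1+/- against Tia1+/- the 6 libraries alone gave 3, and 1 with the replicate block. Leaving out 1 library gave 0 to 2 in Tia1+/- against WT (2 without WT replicate 3), 0 to 3 in the interaction (3 without WT replicate 3) and 0 to 3 in the Tia1+/- average (3 without WT replicate 1).

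Over all genes the edgeR calls in the same 5 comparisons and the Tia1+/- and P301S averages were 0, 37, 110, 0, 1, 68 and 0, against 445, 854, 978, 404, 1245, 635 and 80 by DESeq2 and 0, 7, 9, 0, 0, 12 and 0 with the replicate block. The block in the fit of all libraries changed no member's call. Npbwr1, at 1 to 20 counts per library, is limited by depth.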

Other observations

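Markers of other cell types were read in the same fits, and none passed the adjusted threshold in edgeR. All 5 oligodendrocyte genes were higher in Tia1+/- than in WT cortex at an unadjusted p under 0.05, with a median log2 fold change of 0.95, and all 5 had a negative interaction, with a median of -1.14. Over all genes 19.1% and 22.9% reached that level in these comparisons. Of 5 microglia genes, 4 were higher in PS19 than in WT cortex at that level, with a median of 0.50, against 16.3% of all genes. Genes of cortical excitatory neurons summed to 362.5 CPM in Tia1+/- replicate 3 and 562.3 CPM in WT replicate 1, against 727.4 to 1163 CPM in the other 10 libraries. Genes of GABAergic interneurons summed to 1510 to 1695 CPM in P301S Tia1+/- and 920 to 1189 CPM in PS19 cortex. The higher sum went with Gad1 and Gad2 (log2 fold changes of 1.60 and 0.52), while Sst, Vip, Pvalb, Lhx6 and Cck were at -0.81, -0.79, -0.82, -1.37 and -0.20, and the median of the list was -0.50.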
